A study of Mus musculus with 4 samples.

Results

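The proteasome subunit genes measured here were the 45 genes with at least 1 array probe whose RefSeq symbol begins with Psma, Psmb, Psmc, Psmd or Psme followed by a digit. They were chosen by name alone, with no expression value, out of 19748 named genes with a probe. The RefSeq table holds 52 such symbols, and the 7 without a matched probe were 6 pseudogenes and Psme2b. For each gene the probe with the highest mean signal over all arrays stood for the gene. Of the 45 genes, 31 encode constitutive subunits of the core and regulatory particles, 3 (Psmb8, Psmb9 and Psmb10) the immunoproteasome subunits, 2 tissue-specific core subunits, 3 chaperones of regulatory particle assembly and 4 activators, while Psmc3ip and Psme3ip1 fit the name pattern without being subunits. The signal of 44 genes passed the scanner software's test against background on each of the 4 arrays, and that of Psmb11 on none.

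The arrays compared embryonic stem cells (ESCs) of female mouse parthenotes, embryos made from unfertilised eggs, so that all cells carry only a maternal genome. There were 2 arrays of haploid ESCs and 2 of diploid ESCs, each group holding a line 1 and a line 2, with no other treatment or allele named in the labels. The series' theme is the passage from G2 into mitosis and the tendency of haploid ESCs to become diploid. Whether the haploid cultures were sorted for DNA content, and whether the cells grew on feeder cells, cannot be told from the labels. Values are log2 signals relative to the array's 75th percentile, so that a total change of RNA per cell is not measured. In such bulk RNA, fewer cells of a type and less RNA per cell cannot be told apart.

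The proteasome degrades proteins tagged with ubiquitin. Its barrel-shaped 20S core is built from outer alpha rings, which gate the entry, and inner beta rings, which carry the proteolytic sites, and the 19S particle that caps it recognises, unfolds and feeds in the substrate. Exit from mitosis depends on it, because cyclin B and securin are destroyed by it once the anaphase-promoting complex has tagged them, and pluripotent stem cells are known for high proteasome activity. Interferon induces 3 alternative catalytic subunits that form the immunoproteasome, in which Psmb9 takes the place of Psmb6, Psmb10 that of Psmb7 and Psmb8 that of Psmb5.

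The promoters of a constitutive and an interferon-inducible pair are shown because the members are reported in these groups. Each sequence is the 250 bases before the annotated gene start, from RefSeq on build GRCm38.p6, read 5′ to 3′ on the gene's strand, with motif matches in capitals.
Psmb5, chr14:54617996-54618245, minus strand: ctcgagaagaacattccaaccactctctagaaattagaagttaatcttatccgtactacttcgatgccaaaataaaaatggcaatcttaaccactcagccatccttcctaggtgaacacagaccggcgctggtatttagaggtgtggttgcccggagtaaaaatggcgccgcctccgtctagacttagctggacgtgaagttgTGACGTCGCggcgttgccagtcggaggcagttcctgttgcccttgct
Psmb6, chr11:70525107-70525356, plus strand: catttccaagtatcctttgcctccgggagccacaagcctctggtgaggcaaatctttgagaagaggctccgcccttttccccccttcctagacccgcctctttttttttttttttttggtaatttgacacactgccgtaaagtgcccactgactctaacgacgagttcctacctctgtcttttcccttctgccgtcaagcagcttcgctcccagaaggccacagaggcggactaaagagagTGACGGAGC
Psmb8, chr17:34197945-34198194, plus strand: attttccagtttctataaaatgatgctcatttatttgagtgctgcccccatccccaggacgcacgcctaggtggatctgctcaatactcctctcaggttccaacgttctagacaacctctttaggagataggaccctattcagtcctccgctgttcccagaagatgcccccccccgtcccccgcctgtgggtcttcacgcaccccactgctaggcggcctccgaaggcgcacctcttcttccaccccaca
Psmb9, chr17:34187331-34187580, minus strand: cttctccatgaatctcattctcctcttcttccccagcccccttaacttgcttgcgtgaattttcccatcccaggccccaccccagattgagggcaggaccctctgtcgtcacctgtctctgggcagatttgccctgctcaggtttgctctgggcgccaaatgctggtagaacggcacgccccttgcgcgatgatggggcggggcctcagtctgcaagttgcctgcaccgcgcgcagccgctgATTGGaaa

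A set of 3 motifs was searched on both strands of these windows. The antioxidant response element core, TGACNNNGC, is the site of NRF1 and NRF2, transcription factors known to drive proteasome genes. It was matched in Psmb5 (TGACGTCGC, bases 47 to 39 before the start) and in Psmb6 (TGACGGAGC, bases 9 to 1 before the start). Windows were given for 25 of the 31 constitutive subunits, and 4 of their 27 windows (14.8%) held this motif, against 10.2% of all 32851 windows. A CCAAT box lay in 10 of the 27 windows (37.0%), against 33.8% of all. In Psmb9 the capitals mark a CCAAT box on the opposite strand, and Psmb8 held none of the motifs. The core of the interferon-stimulated response element (GAAA, any 2 bases, GAAA) was found in 2 of the 27 windows (7.41%), against 2.98% of all, and in neither immunoproteasome window shown. The motifs overlap in none of the sequences shown, and a missing match says only that these letters are not in this window.

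The cells carried ESC markers on every array. Each of 12 ESC markers, among them Pou5f1, Sox2 and Nanog, passed the background test on every array. Their summed level was 267 to 274 times the 75th percentile in haploid and 230.2 to 260.2 times in diploid cells. None of the 12 passed the limma test, and 8 lay above 0 and 4 below. Both haploid arrays lay below both diploid arrays for Tdgf1 (-0.51), Nanog (-0.37) and Utf1 (-0.26). They lay above for Dppa5a (0.35), Zfp42 (0.33), Tfcp2l1 (0.27) and Esrrb (0.20). These are 3 and 4 of the 12 markers, and over all features 20.9% lay below and 26% above in this way. Among 20 fibroblast markers 16 passed the background test on every array, and Pdgfra and Prrx1 passed it on no array. The summed level of the fibroblast markers was 46.9 to 49.0 times the 75th percentile on haploid arrays and 32.8 to 38.3 times on diploid arrays, and Fn1 alone gave 29.7 to 32.0 of it in haploid and 24.3 to 26.9 in diploid cells. Of the 17 fibroblast markers tested 13 lay above 0 and 4 below, among them Ccl2 with a log2 difference of 1.59 and Col3a1 with -0.39, and none passed the test. Among 11 leukocyte markers 5 passed it on every array and 3, Lyz2 and Tyrobp among them, on none, with summed levels of 4.36 to 5.29 in haploid and 3.73 to 4.48 in diploid cells. The 75th percentile of the signal ran from 526 to 907 intensity units, with the highest value on the diploid replicate 2 array, and 53.6% to 65.0% of probes were well above background.

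No proteasome gene was called different between haploid and diploid ESCs at a limma adjusted p of at most 0.05. None of the 31 constitutive subunits passed the test (limma adjusted p from 0.501 to 0.999), and none had an unadjusted p under 0.05. Over all 17963 features 0.111% passed the adjusted test, and at the unadjusted threshold 6.79% were higher and 4.92% lower in haploid cells. Every constitutive difference was smaller than 0.5 on the log2 scale, with a median of 0.17 beside 0.02 over all features. Values above 0 were seen for 25 of the 31. All 31 of the 95% intervals included 0, and they reached from -0.55 (Psmb2) to 1.10 (Psmb5), so that the arrays leave room for 2-fold changes in 1 subunit, Psmb5, and smaller ones in the rest.

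**Figure D1:**
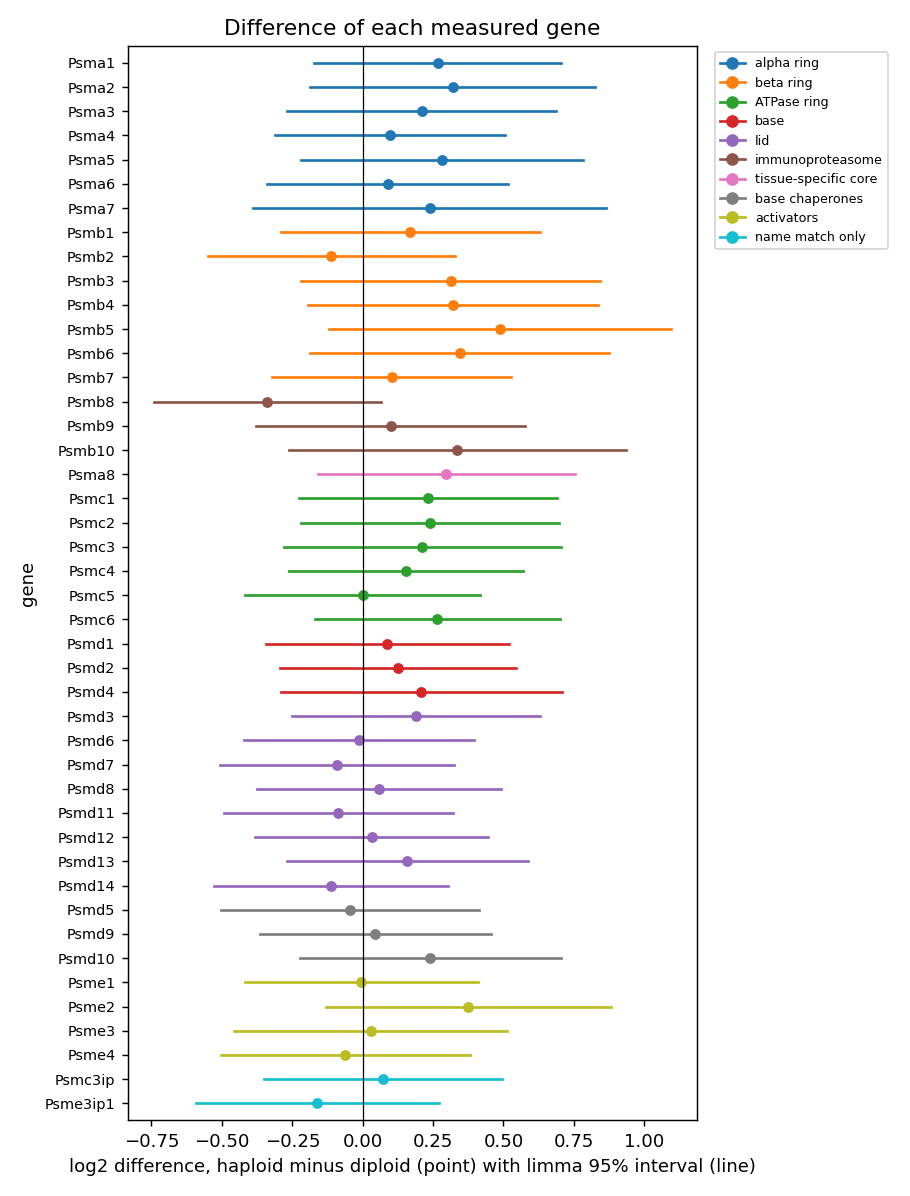
Log2 difference between haploid and diploid ESCs for each of the 44 genes tested, haploid minus diploid (points), with the 95% interval from limma (lines, n = 2 arrays per group), coloured by the role of the gene. Every interval crosses 0, and the points run from -0.34 (Psmb8) to 0.49 (Psmb5).

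None of the alpha ring genes passed the test. All 7 differences lay above 0 with a median of 0.24, and this median was 0.03 without diploid replicate 2, 0.04 with quantile normalization and 0.03 with cyclic loess. Psma2 had the largest difference of the ring. Its signals were 7.29 and 7.43 in haploid replicates 1 and 2 and 7.26 and 6.82 in diploid replicates 1 and 2. The groups do not overlap, but haploid replicate 1 and diploid replicate 1 were only a few hundredths apart and diploid replicate 2 was low. The difference was 0.32 ± 0.21 SE (n = 2 per group, adjusted p = 0.571), or 0.10 without diploid replicate 2. Psma6 had the smallest difference, with 5.10 and 5.10 in haploid and 5.13 and 4.89 in diploid cells. Diploid replicate 1 lay above both haploid arrays here, and the difference was 0.09 ± 0.18 (adjusted p = 0.855), or -0.03 without diploid replicate 2.

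Among the beta ring genes 6 of 7 lay above 0, with a median of 0.31. Psmb5, the subunit with chymotrypsin-like activity and the target of proteasome inhibitors such as bortezomib, gave 8.11 and 7.96 in haploid and 7.87 and 7.22 in diploid cells. Both haploid arrays were above both diploid arrays, and the gap between the diploid arrays was wider than that between haploid cells and diploid replicate 1. Psmb5 differed by 0.49 ± 0.25, or 1.40-fold (adjusted p = 0.501). Its dimmer probe differed by 0.20, and without diploid replicate 2 the brighter one differed by 0.16.

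Psmb6, with caspase-like activity, gave 7.70 and 7.65 in haploid and 7.58 and 7.07 in diploid cells, again with diploid replicate 2 apart from the other arrays. It differed by 0.34 ± 0.22 (adjusted p = 0.564), or 0.09 without diploid replicate 2. Psmb7, with trypsin-like activity, gave 4.27 and 4.45 in haploid and 4.32 and 4.19 in diploid cells. These groups overlap, and Psmb7 differed by 0.10 ± 0.18 (adjusted p = 0.830), or 0.03 without diploid replicate 2. Psmb2, a structural beta subunit, was the one member of the ring below 0. It gave 1.42 and 1.49 in haploid and 1.70 and 1.44 in diploid cells, with diploid replicate 2 between the haploid arrays, and differed by -0.11 ± 0.18 (adjusted p = 0.824), or -0.24 without diploid replicate 2.

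The ring of 6 ATPases that unfolds the substrate had a median difference of 0.22, with 5 genes above 0. Psmc6 gave 2.93 and 3.09 in haploid and 2.64 and 2.85 in diploid cells. Here diploid replicate 1, not diploid replicate 2, was the lowest array, and the groups do not overlap. Psmc6 differed by 0.27 ± 0.18 (adjusted p = 0.582), and by 0.16 without diploid replicate 1 and 0.37 without diploid replicate 2. Psmc5 gave 4.83 and 4.69 in haploid and 4.82 and 4.70 in diploid cells. The 2 groups had almost the same values, and the 95% interval of the difference ran from -0.42 to 0.42. Psmc1, Psmc2 and Psmc3 differed by 0.23, 0.24 and 0.21, each with a further probe, at 0.03, 0.42 and -0.05.

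None of the non-ATPase subunits of base and lid passed the test. Their median difference was 0.06 over 11 genes, 7 of them above 0, and -0.06 with quantile normalization, and the 8 lid genes alone had a median of 0.01. Psmd4, a ubiquitin receptor, had the highest difference of them. It gave 6.82 and 6.78 in haploid and 6.81 and 6.37 in diploid cells, so that 3 arrays were level and diploid replicate 2 was low. Psmd4 differed by 0.21 ± 0.21 (adjusted p = 0.705), and by -0.01 without diploid replicate 2.

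Psmd2, the scaffold of the base, gave 5.43 and 5.33 in haploid and 5.34 and 5.17 in diploid cells and differed by 0.13 ± 0.17 (adjusted p = 0.790), or 0.04 without diploid replicate 2. Diploid replicate 1 lay between the haploid arrays. Psmd14, the deubiquitinase that removes the ubiquitin chain at the lid, had the lowest difference. It gave 2.22 and 2.35 in haploid and 2.34 and 2.46 in diploid cells, with the groups overlapping by about a hundredth, and differed by -0.11 ± 0.17 (adjusted p = 0.810).

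Both haploid arrays lay above both diploid arrays in 12 of the 31 constitutive genes and below them in 1, Psmd11, a lid subunit, which differed by -0.09. Over all features, 26% lay above in this way and 20.9% below. The 12 were 4 alpha, 4 beta, 3 ATPase and 1 lid gene. Diploid replicate 2 was the lowest of the 4 arrays in 23 of the 31 genes, including all 7 alpha ring genes and 13 of the 14 core genes. Its values lay a median of 0.19 below the gene's own mean, while the other 3 arrays lay 0.05 to 0.09 above it.

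**Figure D2:**
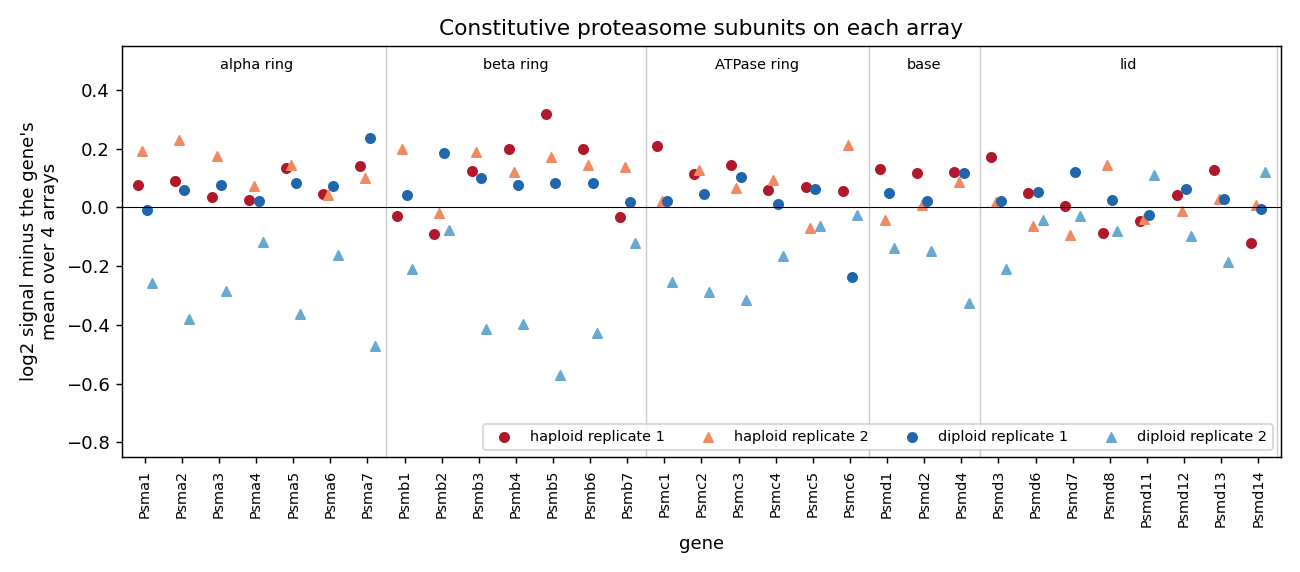
Log2 signal of each of the 31 constitutive subunits on each array, minus that gene's mean over the 4 arrays, with haploid arrays in red and orange and diploid arrays in dark and light blue. Diploid replicate 2 is the lowest array in 23 of the 31 genes, with its largest distances in the alpha and beta rings, while diploid replicate 1 lies between the haploid arrays in 12 genes, below both in 12 and above both in 7.

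The spread between the diploid arrays exceeded the difference between the groups. Diploid replicate 1 lay above diploid replicate 2 by a median of 0.24 over the constitutive subunits and by 0.40 over the 14 core genes, whereas the haploid arrays differed by a median of 0.00 and -0.06, replicate 1 minus replicate 2. Without diploid replicate 2 the constitutive median was 0.03, with 20 of 31 genes above 0, and the core median 0.05. Without diploid replicate 1 they were 0.26 and 0.45. Without haploid replicate 1 or 2 the constitutive median was 0.17 and 0.18.

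Bright probes moved with the result. With all features cut into 10 classes of equal size by mean signal, 20 of the 31 constitutive genes fell in the brightest class and 8 in the next. The median difference of all features was 0.22 in the brightest class and 0.09 in the next, and diploid replicate 1 lay above diploid replicate 2 there by 0.33 and 0.17. Relative to the median of its own brightness class, the constitutive subunits had a median of -0.0050. Across the 31 genes the difference rose with mean signal (Pearson r = 0.79, Spearman rho = 0.79, across genes that share the same 4 arrays), against 0.19 and 0.26 over all features. Signals of different genes come from different probes, so that the classes rank probe brightness and not transcript abundance. The part of signal strength in the members' difference was not tested beyond these values.

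**Figure D3:**
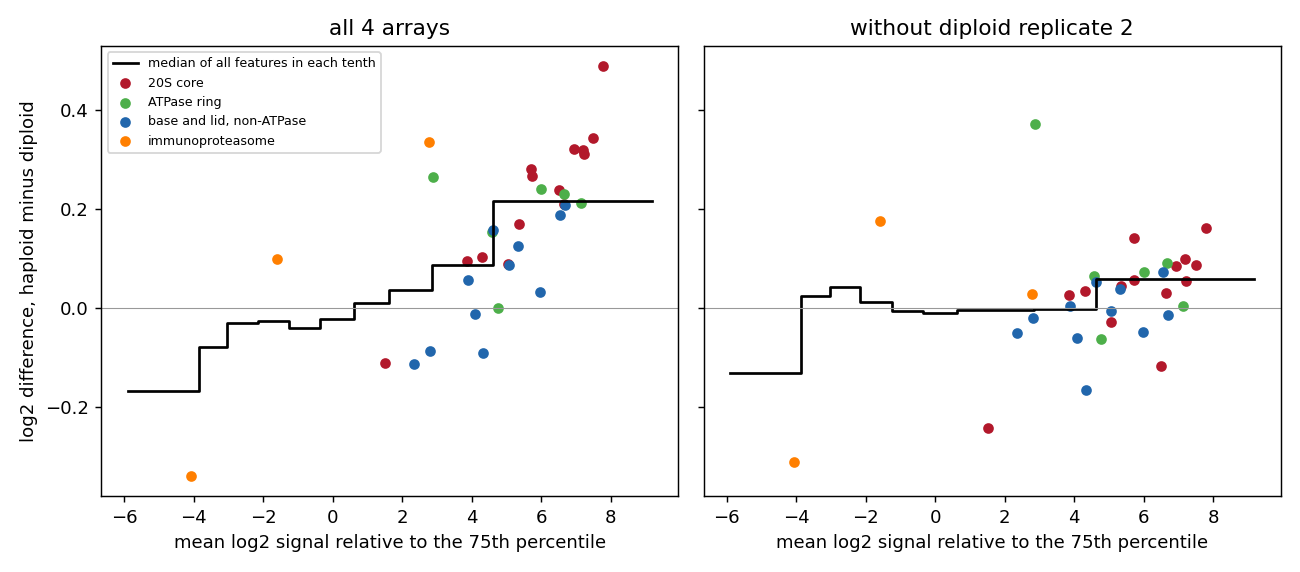
Log2 difference, haploid minus diploid, against the mean log2 signal relative to the 75th percentile, with all 4 arrays (left) and without diploid replicate 2 (right). The black steps give the median of all features in each of 10 classes by signal, and the points are proteasome genes by role. With all arrays the steps climb from -0.17 to 0.22 and the constitutive genes climb with them, while without diploid replicate 2 the brightest class lies at 0.06.

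The constitutive median lay close to 0 with quantile normalization, cyclic loess and the authors' value table. With quantile normalization the constitutive median was -0.0094 with 14 of 31 genes above 0, and with cyclic loess it was -0.0031 with 15 above 0. The authors' value table gave 0.0020 with 16 above 0. The median of the 14 core genes lay 0.19 above that of the 11 non-ATPase genes. It also lay above it in the 9 alternatives that can change this gap, by 0.06 (without diploid replicate 2) to 0.34. The ATPase ring did not keep its place, since without diploid replicate 2 its median of 0.07 lay above that of the core (0.05), against 0.22 and 0.25 with all arrays. These orders were not tested, and the core probes were also the brighter ones, with 11 of 14 in the brightest class against 5 of 11. Relative to the median of each gene's brightness class, the median was 0.035 for the core and -0.099 for the non-ATPase genes.

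**Figure D4:**
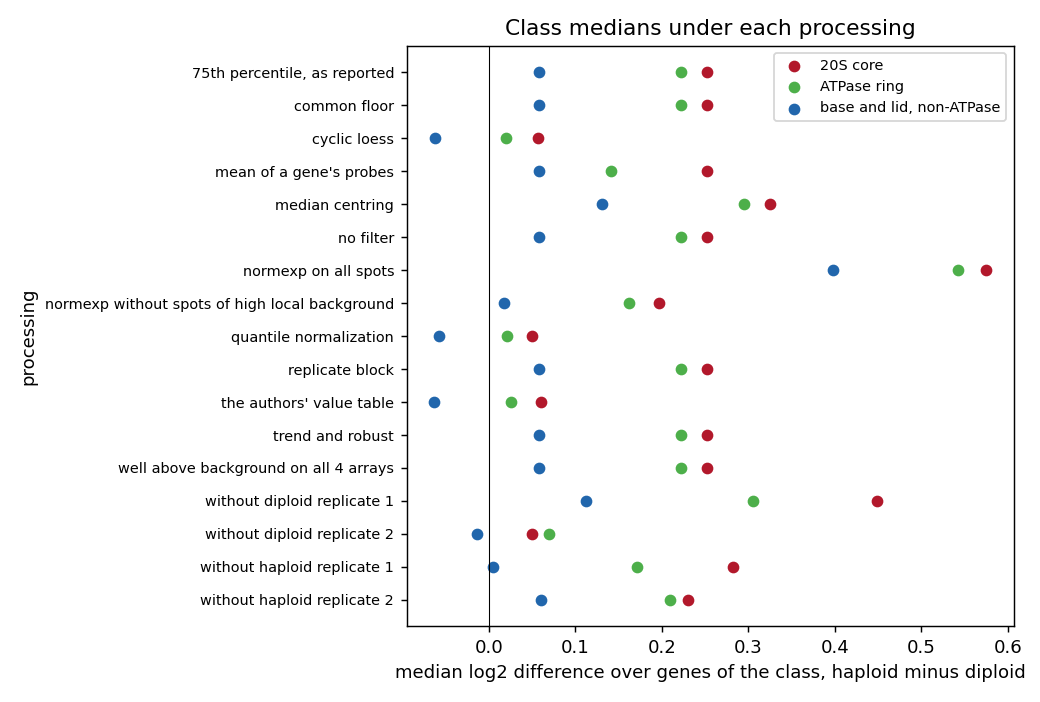
Median log2 difference, haploid minus diploid, over the 14 core, 6 ATPase and 11 non-ATPase genes under each way of processing the data (rows). The medians shift together, from -0.06 to 0.06 with quantile normalization, cyclic loess and the value table to 0.40 to 0.57 with normexp on all spots, and the core lies to the right of the non-ATPase subunits in every row.

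The immunoproteasome genes were measured in both groups, and the 95% intervals of their differences overlapped one another. Psmb8 gave -4.19 and -4.28 in haploid and -3.93 and -3.87 in diploid cells. Both haploid arrays were below both diploid arrays, and Psmb8 differed by -0.34 ± 0.17, or 0.79-fold (95% interval -0.74 to 0.06, adjusted p = 0.488), the smallest p of all proteasome genes. Its probe lay in the dimmest of the 10 brightness classes, whose median over all features was -0.17. With 1 array left out it ran from -0.38 to -0.29. It was -0.18 with cyclic loess and -0.79 with normexp on all spots, and with normexp fitted without the spots of highest local background it was 0.079.

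Psmb9, which shares a divergent promoter region with the peptide transporter gene Tap1, gave -1.72 and -1.37 in haploid and -1.72 and -1.57 in diploid cells. These groups overlap, and Psmb9 differed by 0.10 ± 0.20 (adjusted p = 0.855). The sign was not stable, with -0.08 without haploid replicate 2, 0.28 without haploid replicate 1 and -0.22 by normexp on all spots. Psmb10 gave 2.84 and 3.06 in haploid and 2.92 and 2.31 in diploid cells, with diploid replicate 2 low and diploid replicate 1 between the haploid arrays. It differed by 0.34 ± 0.25 (adjusted p = 0.608), and by 0.03 without diploid replicate 2. None of the 3 genes passed the test with limma, and none had an unadjusted p under 0.05.

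Set beside their constitutive counterparts, Psmb8 differed by -0.34 and Psmb5 by 0.49, Psmb9 by 0.10 and Psmb6 by 0.34, and Psmb10 by 0.34 and Psmb7 by 0.10. Psmb8 lay in the dimmest brightness class and Psmb5 in the brightest, whose medians over all features were -0.17 and 0.22. With quantile normalization the same pairs gave -0.27 and 0.18, 0.11 and 0.07, and 0.29 and -0.02. The differences between partners were not tested.

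**Figure D5:**
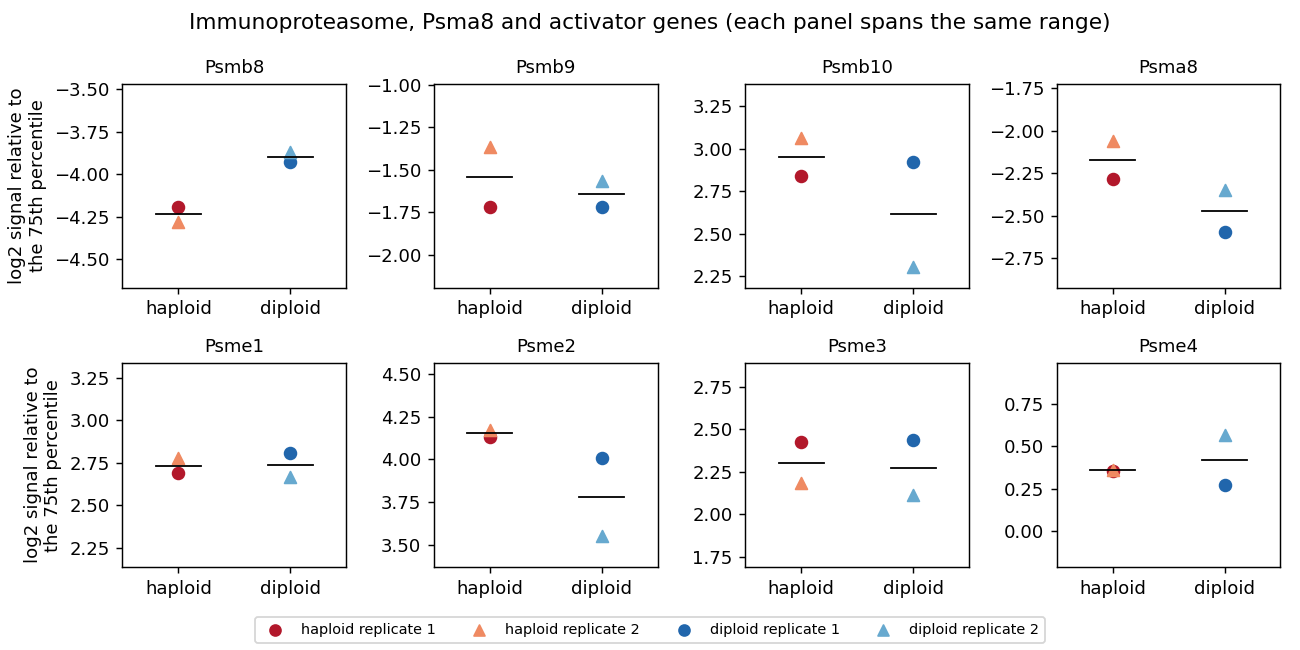
Log2 signal relative to the 75th percentile on each array for the immunoproteasome genes, Psma8 and the activator genes, with haploid arrays on the left and diploid arrays on the right of each panel and black lines at the group means (n = 2). Every panel spans the same log2 range at its own level. Psmb8 is lower and Psma8 and Psme2 higher on both haploid arrays, and the other 5 genes overlap between the groups. Over all features, 20.9% lie below and 26% above in this way.

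The activators open the core without ATP or ubiquitin. Psme2, which pairs with Psme1 in the interferon-inducible activator PA28, gave 4.13 and 4.17 in haploid and 4.01 and 3.55 in diploid cells. The groups do not overlap, and Psme2 differed by 0.38 ± 0.21 (adjusted p = 0.521), with its dimmer probe at 0.16 and a value of 0.15 without diploid replicate 2. Its partner Psme1 gave 2.69 and 2.78 in haploid and 2.81 and 2.67 in diploid cells. The haploid values lay within the diploid ones, and the 95% interval of the difference was -0.42 to 0.41.

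Psme3, the nuclear activator PA28 gamma, gave 2.43 and 2.18 in haploid and 2.44 and 2.11 in diploid cells and differed by 0.03 ± 0.20 (adjusted p = 0.963), or -0.14 without diploid replicate 2. Psme4, the large nuclear activator PA200, gave 0.35 and 0.36 in haploid and 0.27 and 0.56 in diploid cells and differed by -0.06 ± 0.18 (adjusted p = 0.908), or 0.08 without diploid replicate 2. In both genes the haploid values lay inside the diploid range. Cross-hybridisation of Psme2 probes with its close copy Psme2b was not tested.

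Of the tissue-specific core genes, Psma8, the alpha subunit of male germ cells, was detected, by 1 probe whose cross-hybridisation was not tested. It gave -2.29 and -2.06 in haploid and -2.59 and -2.35 in diploid cells and cleared background on all 4 arrays. Both haploid arrays were above both diploid arrays, by little in the case of haploid replicate 1 and diploid replicate 2. The difference was 0.30 ± 0.19 (adjusted p = 0.562), and it ran from 0.18 without diploid replicate 1 to 0.42 without diploid replicate 2, with 0.19 without haploid replicate 2. Psmb11, the beta subunit of the thymic cortex, gave -6.69 and -7.06 in haploid and -6.73 and -7.43 in diploid cells and did not clear background on any of the arrays, so that no difference is given.

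None of the 3 chaperones that help to assemble the base passed the test. Psmd10, also called gankyrin, had the highest difference. It gave 1.01 and 1.35 in haploid and 1.0 and 0.87 in diploid cells, with haploid replicate 1 and diploid replicate 1 almost equal, and differed by 0.24 ± 0.19 (adjusted p = 0.629), or 0.08 without haploid replicate 2. Its dimmer probe differed by 0.45. Psmd5 had the lowest, with 2.53 and 2.86 in haploid and 2.69 and 2.79 in diploid cells. The diploid values lay inside the haploid range, and the difference was -0.04 ± 0.19 (adjusted p = 0.938).

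Several probes were available for 10 of the 45 genes. In 3 of these (Psmc3, Psmd12 and Psmd9) the probes differed in sign, and the gap between the highest and lowest probe was widest for Psmb5, at 0.29.

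Genes that act with the proteasome did not pass the test either. None of 8 measured assembly factors outside the name pattern passed the test with limma or had an unadjusted p under 0.05, and their median difference was 0.16, or 0.04 without diploid replicate 2. The pair with the smallest p was Psmg1, a chaperone of alpha ring assembly, with 0.37 ± 0.21 (adjusted p = 0.521), and Pomp, the maturation factor of the core, with 0.29 ± 0.21 (adjusted p = 0.612). In both, diploid replicate 2 was the lowest array, at 5.02 against 5.48 to 5.63 for Psmg1 and at 4.67 against 5.15 to 5.20 for Pomp. Among 15 receptors, deubiquitinases and shuttle factors the median was -0.01, and none passed or had an unadjusted p under 0.05. Usp14, a deubiquitinase on the 19S particle, differed by 0.30 ± 0.18 and Zfand5, a proteasome-binding zinc finger protein, by -0.29 ± 0.18 (adjusted p = 0.552 and 0.559).

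The transcription factors of proteasome genes and their regulators had a median of -0.13 over 10 measured genes, or -0.02 without diploid replicate 2 and -0.28 without diploid replicate 1, with none called by limma and none at an unadjusted p under 0.05. Nfyb and Nfyc, subunits of the factor that binds the CCAAT box, differed by -0.29 ± 0.19 and 0.34 ± 0.22 (adjusted p = 0.562 and 0.567). Of 6 genes for ubiquitin and its activating enzymes, 5 lay above 0 and none passed, while 2 had an unadjusted p under 0.05. At that threshold 6.79% of all features were higher and 4.92% lower. Uba6, a ubiquitin-activating enzyme, gave -1.58 and -1.82 in haploid and -1.15 and -1.15 in diploid cells and differed by -0.55 ± 0.18 (adjusted p = 0.323). Both haploid arrays were below both diploid arrays.

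Genes that act with the immunoproteasome in antigen presentation had a median of -0.01 over 9 measured genes, with none called and 1 higher at an unadjusted p under 0.05. This was B2m, the light chain of MHC class I, with 0.90 and 0.97 in haploid and 0.56 and 0.45 in diploid cells and a difference of 0.43 ± 0.17 (limma adjusted p = 0.408). H2-D1, a class I heavy chain, differed by -0.18 ± 0.18 (adjusted p = 0.700). Interferon response genes had a median of 0.39 over 12 measured genes, 11 of them above 0. None passed over all features, and 4 were higher and 1 lower at an unadjusted p under 0.05. Of all features, 6.79% were higher and 4.92% lower at this threshold. Cxcl10 differed by 1.45 ± 0.17 (adjusted p = 0.0581). Rsad2, the 1 lower gene, gave -4.68 and -4.80 in haploid and -3.48 and -3.78 in diploid cells. On haploid replicate 1 it lay below the lowest signal scored well above background there (-4.66). Rsad2 thus passed the filter through the diploid arrays alone, and its difference of -1.11 is only a bound. Psmb8, Psmb9 and Psmb10, which interferon can induce, gave the values above. Fibroblast markers had a median of 0.61 over 17 measured genes, 13 of them above 0 and 4 below (Dcn, Col3a1, Lum and Twist1), with none called and 8 higher at an unadjusted p under 0.05, and their part in the interferon list was not tested.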

How the data were processed

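Each of the 4 samples was measured on a 1-colour Agilent array, from 0.2 ug of RNA labelled with Cy3 per the labels' protocols. The deposited scanner files were written by Feature Extraction 11.0.1.1 (Agilent), per the file headers. The column used is the processed intensity, from which the software had already taken the background. The authors' deposited value table also holds intensity values, on a linear scale with column medians of 28.3 to 28.4 and a normalization that no source used here names. The deposited flags for outliers and for signals well above background were used as scored by the software.

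Control spots and outlier spots were left out, repeated spots were averaged as log2 values, and each array's 75th percentile was subtracted. Probes were named through the RefSeq table (GRCm38.p6), which matched 26043 of 39409 probes. Features well above background on both arrays of a group, 17963 in all, were fitted with limma 3.58.1 in R 4.3.3 (lmFit, eBayes, two-sided), haploid against diploid, with Benjamini-Hochberg adjustment over all features and a threshold of 0.05. The script was tested on simulated data. All 4 arrays were on 1 slide and shared 1 scan time. Samples of a group are independent experiments per the series' design, and p-values measure the spread between them, the number of arrays limiting the precision. Equal line numbers were not taken as pairs. With 2 arrays against 2, an exact permutation test cannot go below p = 0.333, so none was used.

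The members, lists and tests were chosen with earlier results of these data known. Values on each array are given for the immunoproteasome, catalytic, activator and tissue-specific genes, Psmd2, Psmd4 and Psmd14, and the highest and lowest gene of each class, and of each further list the pair with the smallest p, except for 1 gene that is not reported here. Psmd11, the probe pairs of Psmc1 to Psmc3 and the other genes with unlike probes were named after their values were seen. The alternatives were quantile, cyclic loess and median scaling, normexp (on median signals, since the files hold no mean signal), the value table, other filters, a common floor, the mean of a gene's probes, another variance prior, the replicate block and leaving out each array.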

Additional observations from a re-analysis of the deposited data

How the results depend on the processing

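No proteasome gene was called in any of the 16 other ways of processing the data (smallest adjusted p 0.348), and the counts of called constitutive and immunoproteasome genes were 0 in each. The constitutive median of 0.17 became -0.0031 with cyclic loess, -0.0094 with quantile normalization, 0.0020 with the value table and 0.49 with normexp on all spots, a correction fitted with 3 spots of high local background on diploid replicate 2. It ran from 0.034 to 0.26 with 1 array left out, lowest without diploid replicate 2. Directions were less stable. Of 336 alternative values for the 21 named genes tested, 41 changed sign, in 14 genes, although 5 of the alternatives move no difference. Where the difference exceeded its SE, the sign turned for Psmd4, with -0.0031 by cyclic loess, -0.0055 by quantile normalization and -0.014 to 0.43 with 1 array left out, Psma8 with -0.22 by normexp on all spots, and Psmb8 with 0.079 by normexp without spots whose local background exceeded 200 units, an alternative chosen after seeing the data. The cause of these changes was not tested.

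Over all features the number called was 20 (15 higher and 5 lower). It was 0 with a common floor, cyclic loess, no filter or normexp on all spots, 2 with the replicate block, 4 with the value table, 7 with quantile normalization (6 higher), 82 with signals well above background on all 4 arrays, 89 with median centring (76 higher), 143 with normexp without spots of high background and 425 with a trended, robust prior, and 0 to 294 with 1 array left out. The replicate differences of the 2 groups had a correlation of 0.05 across features. This value cannot tell whether equal line numbers share an origin, since it also carries differences between the arrays. The replicate block pairs the samples by number alone. Among the members, Psmb11 alone failed the background test. Psmb8 passed it with signals of -4.28 to -3.87, in the dimmest of the 10 brightness classes. The lowest signals scored well above background ran from -5.38 to -4.60 over the arrays.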

Other observations

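Psmd10 was the one member on the X chromosome. Like each autosome, the X is present in a single copy in a haploid cell and as a pair in a diploid female cell. The signal of Psmd10 relative to the 75th percentile differed by 0.24 ± 0.19 between haploid and diploid ESCs (limma adjusted p = 0.629). It differed by 0.23 relative to the median of its brightness class, and by 0.08 relative to the 75th percentile without haploid replicate 2.

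The pair of genes that fit the name pattern without encoding subunits gave small differences. Psmc3ip, a partner of the meiotic recombinases, gave 1.48 and 1.51 in haploid and 1.53 and 1.32 in diploid cells and differed by 0.07 ± 0.17 (adjusted p = 0.884). Psme3ip1, which binds Psme3, gave 1.29 and 1.20 in haploid and 1.29 and 1.52 in diploid cells and differed by -0.16 ± 0.18 (adjusted p = 0.735).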
